A study of Mus musculus with 9 samples.

Results

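The genes described here are 10 genes of the prostaglandin and leukotriene pathway, chosen by symbol out of the 55401 genes in the expression table: Pla2g4a, Ptgs1, Ptgs2, Ptges, Ptges2, Alox5, Alox5ap, Lta4h, Ptger2 and Ptger4. They were measured by RNA sequencing in RAW264.7, a wild-type macrophage line that came from a male mouse tumor induced by Abelson murine leukemia virus, so the cells are those of 1 line. The cells received the solvent DMSO alone (DMSO group), DMSO with lipopolysaccharide (LPS group), or LPS with skatole (LPS + Ska group), and the labels give 24 h of treatment. LPS is a component of the bacterial wall that drives macrophages into an inflammatory state, and skatole is a methylated indole. Each group has 3 samples, numbered 5, 6 and 7, and nothing in the sources used here says whether these were separate cultures, so p-values measure the spread between these samples only.

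Prostaglandins and leukotrienes are short-lived lipid signals made from arachidonic acid. A phospholipase frees the fatty acid from membrane phospholipids, after which cyclooxygenases and prostaglandin E synthases turn it into prostaglandin E2, or 5-lipoxygenase and its helper protein turn it into leukotriene A4, which a hydrolase converts to leukotriene B4. Macrophages make both kinds of lipid, and prostaglandin E2 acts back on them through cell-surface receptors that raise cyclic AMP.

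Expression was deposited as TPM (transcript abundance per unit of length, scaled to a fixed total in each sample). This unit lets genes be compared within a sample, but the depth of sequencing cannot be read from it, and no counting interval is given. The columns of each stimulated group were tied: replicate 5 lay at the midpoint of replicates 6 and 7, within 1e-05 TPM, in 17950 of 17950 genes with LPS and 17658 of 17658 with LPS + Ska, against 10 of 16674 genes in DMSO. No more than 2 values per gene are independent in each of these groups, so that for them n = 3 is a number of columns. For some differences below, the adjusted p from 2 recovered values per group is given beside that from the 3 columns. All other adjusted p-values come from the 3 columns and rest on the tied values. Recovered values often gave a larger one, such as 1.3e-06 in place of 6.9e-08 for Ptgs2 in LPS against DMSO (limma). The macrophage identity of the cells was visible in 8 of 9 marker genes with a mean of at least 1 TPM, whereas Mertk was listed at 0 in every column. The summed TPM of these markers ranged from 12310 to 13270 in DMSO, from 7273 to 7673 with LPS and from 13560 to 13850 with LPS + Ska. Most of this sum was Lyz2, at a mean of 9151, 4423 and 10061 TPM in these groups. Csf1r (835, 522 and 467 TPM) and Cd68 (839, 657 and 608 TPM) were no higher with LPS + Ska than with LPS. Neither were Spi1 (408, 233 and 230.2 TPM) and Adgre1 (24.2, 20.7 and 19.7 TPM). Cd14 (1296, 1523 and 2218 TPM) and Itgam (66.0, 61.2 and 80.7 TPM) were higher with LPS + Ska than with LPS without a call. Fcgr1 (30.5, 34.1 and 22.4 TPM) was called lower in that comparison, and Lyz2 higher. Of 15 markers of other cell types, 1 reached a mean of 1 TPM (S100a8, 1.40) and 8 were listed at 0 in every column. The part of these marker levels in the results was not tested. Of 6 genes picked as known LPS responders (Nos2, Tnf, Il1b, Acod1, Cxcl10 and Irf7), 6 were called higher with LPS. Over all tested genes this share was 12.7%. Nos2 and Il1b averaged 0 and 0.155 TPM in DMSO and reached a mean of 1 TPM only through the stimulated groups. Their calls against DMSO were favored by that filter. In LPS + Ska against LPS 3 were called lower: Il1b (10.2 against 28.1 TPM), Cxcl10 (13.6 against 40.0) and Irf7 (38.0 against 96.1). Over all tested genes 5.98% were called lower there. The other 3, Nos2 (28.5 against 37.5 TPM), Acod1 (178 against 216) and Tnf (207 against 210), were not called.

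Promoters are shown for 3 of the genes, from RefSeq on GRCm38.p6, the build that the submitters' processing notes call mm10. Each runs from 250 bases before to 50 bases after the start site, on the strand of the gene. Ptger4 was the only one of the 9 genes tested that was called between LPS + Ska and LPS. Ptgs2 and Alox5 were added after their values were seen, as the genes furthest up and down with LPS. Capitals mark the matches to 8 motifs searched on both strands. The motif of NF-kB, which LPS activates, was read as GGG and TTTCC with 2 bases between them, and that of AP-1, a partner in inflammatory transcription, as TGA and TCA with 1 base between them. The motif of C/EBP, a factor family of myeloid cells, was TTNNGNAA, and the CRE core bound by cyclic AMP response factors was TGACG. The E-box was searched for as CACGTG, the TATA box, where the basal machinery can bind, as TATAAA, the core site of the macrophage factor PU.1 as GAGGAA, and that of the aryl hydrocarbon receptor AhR, which binds some indoles, as GCGTG.
Ptgs2, chr1:150099781-150100080, plus strand: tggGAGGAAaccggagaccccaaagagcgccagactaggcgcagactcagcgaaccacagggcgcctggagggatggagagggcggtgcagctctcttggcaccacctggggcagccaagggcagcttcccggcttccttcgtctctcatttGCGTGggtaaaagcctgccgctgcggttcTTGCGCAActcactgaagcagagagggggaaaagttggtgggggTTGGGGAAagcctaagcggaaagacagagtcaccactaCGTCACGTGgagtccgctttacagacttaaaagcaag
Alox5, chr6:116461129-116461428, minus strand: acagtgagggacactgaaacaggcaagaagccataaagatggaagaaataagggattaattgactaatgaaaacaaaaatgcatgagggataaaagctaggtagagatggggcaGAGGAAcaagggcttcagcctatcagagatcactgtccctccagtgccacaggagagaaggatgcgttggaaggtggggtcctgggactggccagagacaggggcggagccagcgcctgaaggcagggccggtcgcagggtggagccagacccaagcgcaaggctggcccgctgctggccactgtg
Ptger4, chr15:5244138-5244437, minus strand: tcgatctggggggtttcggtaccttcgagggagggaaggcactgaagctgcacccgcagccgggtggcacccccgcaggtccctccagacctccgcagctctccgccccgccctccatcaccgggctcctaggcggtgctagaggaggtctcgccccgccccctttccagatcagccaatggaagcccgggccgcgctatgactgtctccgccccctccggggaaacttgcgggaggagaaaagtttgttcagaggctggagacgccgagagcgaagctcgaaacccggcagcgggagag
With the start site counted as 1 and the base before it as -1, the Ptgs2 promoter held C/EBP matches at -69 to -62 and -25 to -18, a PU.1 core at -247 to -242 and an AhR core at -98 to -94. It also held a CRE core at 14 to 18 on the reverse strand and an E-box at 17 to 22, which overlap. The Alox5 promoter held a PU.1 core at -136 to -131, and the Ptger4 promoter held none of the 8 motifs in this window. The promoters found for these genes numbered 10, as Pla2g4a had a second start site (149922439), whose promoter held the only TATA box match. A gene was counted if any of its promoters held the motif. Promoters were found for 9 of the 10 genes. Among these 9, a C/EBP match was present in 5, a PU.1 core in 5, an AhR core in 4, an E-box in 2, a TATA box in 1, a CRE core in 1, and the NF-kB and AP-1 letters in 0. Among all 32851 promoters of this length, 40.7% held a C/EBP match, 28.3% a PU.1 core, 32.4% an AhR core, 20.8% a CRE core, 13.6% a TATA box, 7.81% an AP-1 match, 7.15% an E-box and 1.63% an NF-kB match. These matches are a description of the letters only.

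In LPS compared with DMSO, which shows how the inflammatory stimulus alone set the pathway, the inducible cyclooxygenase Ptgs2 and the phospholipase Pla2g4a rose, while Ptgs1, Ptges2, Alox5, Alox5ap and Ptger4 fell. Tests were made with limma on log2(TPM + 1) over 12819 genes whose mean was 1 TPM or more. A call needed both a Benjamini-Hochberg adjusted p under 0.05 and a fold change of more than 1.5 either way. On this scale a fold change understates that of genes with low TPM. Of the 10 genes, 9 passed this filter and were tested. With LPS 2 of these were called higher and 5 lower, where 12.7% of all tested genes were called higher and 19.7% lower. The median log2 fold change was -0.81 over the 9 genes and -0.07 over all tested genes. As these are bulk samples, fewer cells of a kind and less RNA per cell cannot be told apart. The other comparisons, of LPS + Ska with LPS and with DMSO, share the LPS and DMSO columns with this one, so values from them are given side by side only.

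Pla2g4a encodes cytosolic phospholipase A2, which frees arachidonic acid from membranes (chromosome 1, 149829618 to 149961290, minus strand). It measured 129, 136 and 146 TPM in the DMSO columns, 220.2, 221 and 219 with LPS, and 229, 248 and 211 with LPS + Ska. Every LPS column lay above every DMSO column, and the columns of LPS and LPS + Ska overlapped. The rise with LPS was 0.68 on the log2 scale (SE 0.07, limma adjusted p = 3.2e-05), a fold change of 1.61. Between LPS + Ska and LPS the difference was 0.05, with a 95% interval from -0.10 to 0.21 (limma adjusted p = 0.59), and its sign turned when 1 LPS + Ska column was left out (-0.0027 without replicate 6).

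The 2 cyclooxygenases, which make the common precursor of all prostaglandins, moved in opposite directions with LPS. Ptgs1, the constitutive form (chromosome 2, 36230426 to 36252272, plus strand), measured 32.2, 35.7 and 33.4 TPM in DMSO, 5.66, 4.58 and 6.75 with LPS, and 4.47, 4.55 and 4.39 with LPS + Ska. Ptgs2, the inducible form and the target of anti-inflammatory drugs (chromosome 1, 150100031 to 150108227, plus strand), measured 9.83, 12.6 and 14.9 TPM in DMSO, 158, 161 and 156 with LPS, and 203, 224 and 182 with LPS + Ska. For both genes the DMSO columns stood apart from all LPS and LPS + Ska columns. Ptgs2 rose by 3.58 on the log2 scale with LPS (SE 0.13, 95% interval 3.30 to 3.87, limma adjusted p = 6.9e-08), a fold change of 12.0. Ptgs1 fell by 2.40 (SE 0.12, limma adjusted p = 4.4e-07), and its mean TPM was 5.97-fold lower with LPS than with DMSO.

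The make-up of cyclooxygenase transcripts therefore turned over. Ptgs2 made up 26.8 ± 3.75% (SD, n = 3 columns) of the summed TPM of Ptgs1 and Ptgs2 in DMSO, 96.5 ± 0.70% with LPS and 97.8 ± 0.19% with LPS + Ska. The sum of both rose from 46.2 ± 3.65 TPM in DMSO to 164 ± 1.87 with LPS, and measured 207 ± 21.3 with LPS + Ska. No test was run on these shares and sums, whose DMSO columns lay outside the range of the other 6.

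**Figure D1:**
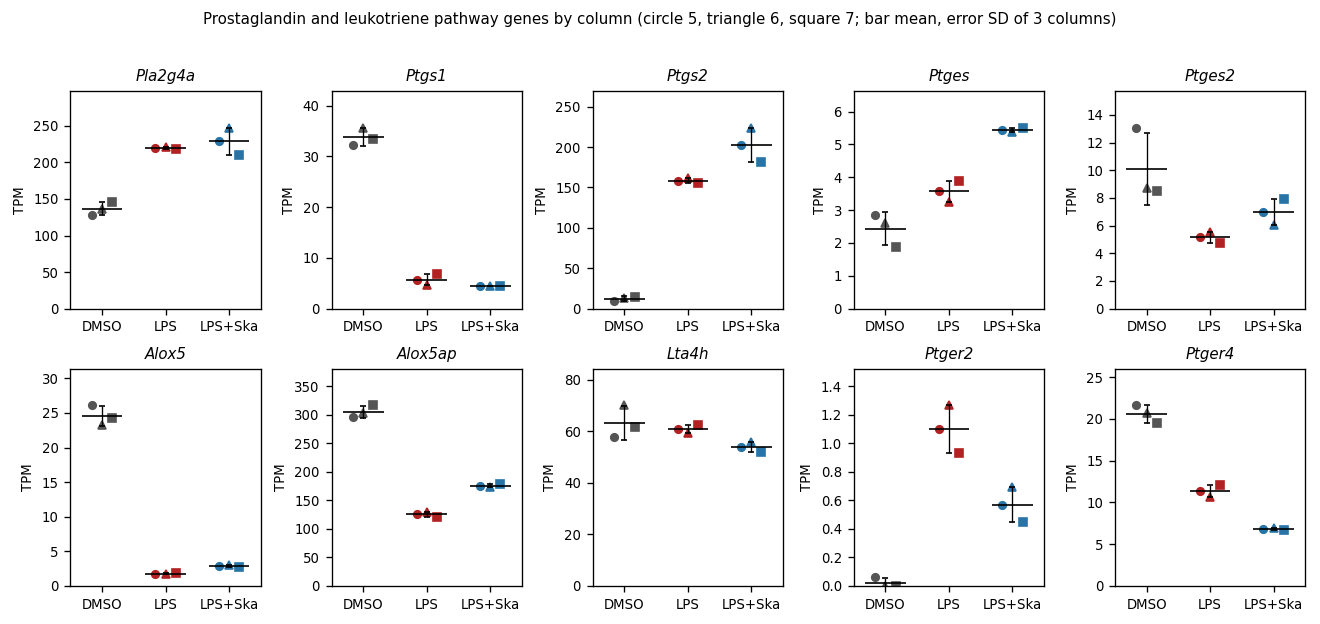
TPM (vertical axes, each from 0) of the 10 genes in every column of DMSO, LPS and LPS + Ska, with symbols for the replicate numbers, a bar for the mean and error bars for the SD over 3 columns. Ptgs2 stood at 9.83 to 14.9 TPM in DMSO and at 156 to 224 TPM in the 6 LPS and LPS + Ska columns, and Alox5 fell from at least 23.2 TPM to at most 3.08 TPM. In LPS and LPS + Ska the circle lies midway between the other symbols because those columns are tied.

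With LPS + Ska, Ptgs2 was not called different from LPS. Its 3 LPS + Ska columns all lay above the LPS columns, and the difference was 0.35 on the log2 scale (SE 0.13, 95% interval 0.06 to 0.64, limma adjusted p = 0.070). With recovered values the adjusted p of limma was 0.16, and with columns scaled to an equal median ratio across genes the difference was 0.45 (limma adjusted p = 0.018), inside the fold limit. Ptgs1 was at -0.27 (SE 0.12, 95% interval from -0.54 to -0.0026, limma adjusted p = 0.12). Relative to DMSO, LPS + Ska gave 3.93 for Ptgs2 (limma adjusted p = 6.1e-08) and -2.67 for Ptgs1 (limma adjusted p = 2.8e-07), both called.

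Ptges and Ptges2 encode prostaglandin E synthases, of which Ptges is the microsomal, inducible one and Ptges2 a membrane-associated form with steadier expression. Ptges (chromosome 2, 30889471 to 30929863, minus strand) measured 2.85, 2.60 and 1.86 TPM in DMSO, 3.57, 3.24 and 3.90 with LPS, and 5.44, 5.37 and 5.51 with LPS + Ska. The 3 groups did not overlap and stood in that order, at levels far below those of Ptgs2. Ptges was not called in LPS against DMSO, where the difference of 0.42 on the log2 scale (SE 0.14, limma adjusted p = 0.023, or 0.063 with recovered values) was inside the fold limit. It was not called in LPS + Ska against LPS either (0.50, SE 0.14, limma adjusted p = 0.024, or 0.10 with recovered values), though with a pseudocount of 0.1 it was (0.60, limma adjusted p = 0.035). Between LPS + Ska and DMSO it was called higher (0.92, SE 0.14, limma adjusted p = 2.8e-04), a fold change of 1.89.

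Ptges2 (chromosome 2, 32395896 to 32405772, plus strand) measured 13.1, 8.68 and 8.50 TPM in DMSO, 5.16, 5.55 and 4.77 with LPS, and 6.99, 6.04 and 7.93 with LPS + Ska. DMSO replicate 5 lay well above the other DMSO columns, and no LPS column reached the DMSO range. Ptges2 fell by 0.83 with LPS (SE 0.16, limma adjusted p = 0.0019), and its fall was between 0.64 and 0.92 when single columns were left out. Between LPS + Ska and LPS it differed by 0.37 (SE 0.16, 95% interval 0.0018 to 0.74, limma adjusted p = 0.12). Between LPS + Ska and DMSO it differed by -0.46 (limma adjusted p = 0.034, or 0.063 with recovered values), so neither was called. Ptges took 19.6 ± 2.95% (SD, n = 3 columns) of the summed TPM of Ptges and Ptges2 in DMSO. Its share was 40.9 ± 4.06% with LPS and 43.9 ± 3.03% with LPS + Ska. The LPS and LPS + Ska columns of this share overlapped and the DMSO columns lay below them. Ptges3, which is in the list of prostanoid synthases below, is not part of this share. It averaged 350 TPM in DMSO, 456 with LPS and 492 with LPS + Ska, and was called in no comparison.

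**Figure D2:**
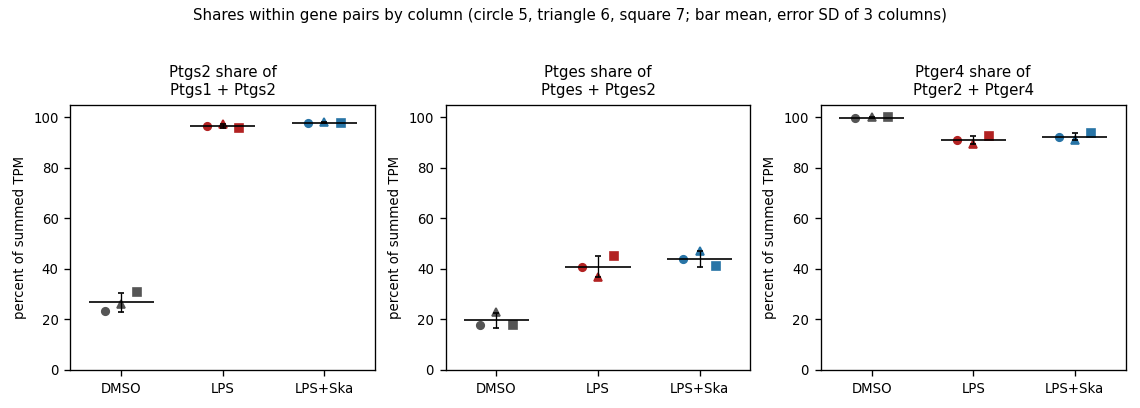
Share, in percent of summed TPM (vertical axes from 0), of Ptgs2 among the 2 cyclooxygenases, of Ptges among 2 prostaglandin E synthases and of Ptger4 among 2 prostaglandin E2 receptors, in every column of each group, with the mean and the SD over 3 columns. The Ptgs2 share went from 26.8% in DMSO to 96.5% with LPS and 97.8% with LPS + Ska, while Ptger4 stayed at or above 89.3% in every column. Ptges3 and Ptger1 are not part of these shares.

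In the leukotriene arm, both genes of the first step fell with LPS, and the hydrolase of the last step was not called. Alox5 encodes 5-lipoxygenase, the enzyme that commits arachidonic acid to leukotrienes (chromosome 6, 116410077 to 116461178, minus strand). It measured 26.2, 23.2 and 24.2 TPM in DMSO, 1.75, 1.67 and 1.84 with LPS, and 2.93, 3.08 and 2.78 with LPS + Ska. The 3 groups did not overlap, and LPS + Ska lay between the others, close to LPS. Alox5 fell by 3.21 on the log2 scale with LPS (SE 0.10, 95% interval from -3.43 to -2.99, limma adjusted p = 2.6e-08), and its mean TPM was 14.0-fold lower.

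Alox5ap encodes the membrane protein that hands arachidonic acid to 5-lipoxygenase (chromosome 5, 149264767 to 149288153, plus strand). It measured 295, 302 and 318 TPM in DMSO, 125, 130.0 and 121 with LPS, and 176, 173 and 179 with LPS + Ska. As for Alox5, the LPS + Ska columns lay between the other groups with no overlap. Alox5ap fell by 1.28 with LPS (SE 0.05, limma adjusted p = 1.1e-07), a smaller fold than for Alox5, and the ratio of Alox5ap to Alox5 TPM went from 12.5 ± 1.02 (SD, n = 3 columns) in DMSO to 71.8 ± 6.12 with LPS and 60.2 ± 4.25 with LPS + Ska. On the opposite strand the transcript Gm19719 shares 189 bases, 13.3% of the exon bases of Alox5ap, and the library kit named in the labels is not known to mark strand, so reads there cannot be assigned to 1 gene.

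Lta4h encodes leukotriene A4 hydrolase, which makes leukotriene B4 (chromosome 10, 93453411 to 93484875, plus strand). It measured 57.6, 70.2 and 61.7 TPM in DMSO, 60.9, 59.2 and 62.6 with LPS, and 54.0, 55.8 and 52.1 with LPS + Ska. DMSO and LPS overlapped, and the LPS + Ska columns were the lowest of the 9. No change was called for Lta4h. With LPS its difference was -0.05 (95% interval from -0.22 to 0.12, limma adjusted p = 0.60), and its sign turned to 0.03 under median-ratio scaling and also without DMSO replicate 6.

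LPS + Ska against LPS asks what skatole added to the stimulus, and here Alox5 and Alox5ap were higher by less than the fold limit. Alox5 differed by 0.51 (SE 0.10, limma adjusted p = 0.0048, or 0.028 with recovered values), and Alox5ap by 0.49 (SE 0.05, limma adjusted p = 2.5e-04, or 0.0027 with recovered values). Under median-ratio scaling both were at 0.59 and were called, and Alox5 was also called with a pseudocount of 0.1 (0.71, limma adjusted p = 0.0027). The mean TPM of Alox5 was 1.67 times and that of Alox5ap 1.40 times the LPS level. Both stayed below DMSO, by -2.70 for Alox5 (limma adjusted p = 9.9e-08) and by -0.79 for Alox5ap (limma adjusted p = 1.6e-06). Lta4h was at -0.17 against LPS (95% interval from -0.34 to -0.0019, limma adjusted p = 0.12). Against DMSO it was at -0.22 (limma adjusted p = 0.028, or 0.062 with recovered values), and neither was called.

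Ptger2 and Ptger4 encode the EP2 and EP4 receptors, both of which bind prostaglandin E2 and raise cyclic AMP. Ptger4 (chromosome 15, 5206661 to 5244187, minus strand) measured 21.7, 20.6 and 19.5 TPM in DMSO, 11.4, 10.6 and 12.1 with LPS, and 6.85, 6.97 and 6.73 with LPS + Ska. The groups stood in 3 separate steps, with LPS + Ska the lowest. Ptger4 fell by 0.81 with LPS (SE 0.08, limma adjusted p = 3.2e-05) and by a further 0.65 with LPS + Ska against LPS (SE 0.08, 95% interval from -0.84 to -0.47, limma adjusted p = 7.3e-04, or 0.0066 with recovered values), a fold change of 0.637 and a mean TPM at 0.604 of the LPS level. This was the only call among the 9 tested genes in LPS + Ska against LPS, and median-ratio scaling placed it inside the fold limit (-0.56, limma adjusted p = 0.0014). Against DMSO it was at -1.46 with LPS + Ska (limma adjusted p = 8.4e-07). The opposite-strand genes Gm15937 and Ttc33 share 1015 bases (15.3%) and 82 bases (1.23%) of its exons, with the same limit as for Alox5ap. Overlaps of this kind took 3.81% of the exon bases of Ptgs1 and 4.74% and 2.77% of those of Ptger2.

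Ptger2 (chromosome 14, 44988195 to 45003820, plus strand) was near the lower end of the measured range, with 0.0615 TPM in 1 DMSO column and 0 in the other two. It measured 1.10, 1.27 and 0.935 TPM with LPS, and 0.571, 0.694 and 0.448 with LPS + Ska. The 3 groups did not overlap. With a mean of 0.565 TPM over the 9 columns it did not pass the filter. In a fit of all 25181 genes with a TPM above 0 in any column, its log2(TPM + 1) was 1.04 higher with LPS than with DMSO (limma adjusted p = 6.8e-05). In the same fit it was at -0.42 in LPS + Ska against LPS (limma adjusted p = 0.010) and at 0.62 against DMSO (limma adjusted p = 7.3e-04). Ptger4 supplied 91.1 ± 1.75% (SD, n = 3 columns) of the summed TPM of these 2 receptors with LPS and 92.3 ± 1.41% with LPS + Ska. Its share was at least 99.7% in every DMSO column. Ptger1, a prostanoid receptor given below, is not part of this share.

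Counted over all 9 tested genes, LPS + Ska against LPS gave 0 called higher and 1 called lower, where 3.35% of all tested genes were called higher and 5.98% lower. At an unadjusted p under 0.05 in limma, 5 were higher and 3 lower, where 12.7% of all tested genes were higher and 27.8% lower at that threshold. By adjusted p alone 3 were higher (Ptges, Alox5 and Alox5ap) and 1 lower (Ptger4), where 8.89% of all tested genes were higher and 19.7% lower. The median log2 fold change was 0.35 over the 9 genes and -0.10 over all tested genes. Against DMSO, LPS + Ska gave 3 higher (Pla2g4a, Ptgs2 and Ptges) and 4 lower (Ptgs1, Alox5, Alox5ap and Ptger4), where 11.4% of all tested genes were called higher and 25.1% lower. Pla2g4a was at 0.74 there (limma adjusted p = 1.6e-05). In that comparison the median was -0.46 over the 9 genes and -0.18 over all tested genes.

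Scaling to an equal median ratio moved the median of all genes from -0.18 to -0.01 in LPS + Ska against DMSO and from -0.10 to -0.0046 in LPS + Ska against LPS. Under that scaling the share of called genes that were higher went from 31.1% to 48.7% and from 35.9% to 52.5% in these comparisons, and from 39.3% to 48.4% in LPS against DMSO. The 7 calls in LPS against DMSO and the 7 in LPS + Ska against DMSO were kept. In LPS + Ska against LPS the 1 call, of Ptger4 as lower, was lost (-0.56). There Alox5 and Alox5ap (both 0.59) were called higher under that scaling.

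**Figure D3:**
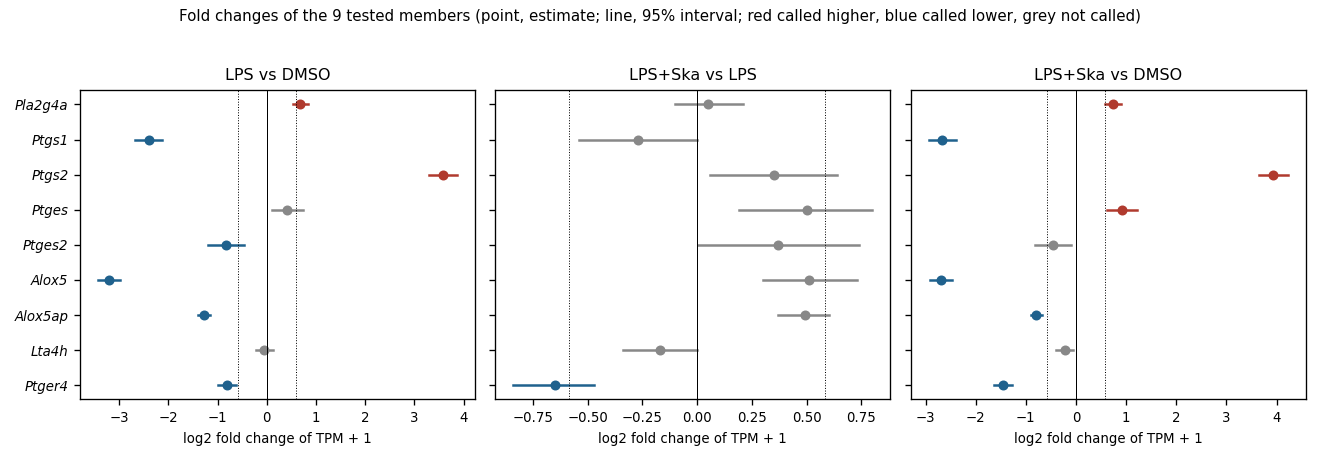
Log2 fold change of TPM + 1 (horizontal axes, which differ in range between panels) of the 9 tested genes in the 3 comparisons. Points are limma estimates, lines are 95% intervals, dotted lines mark a fold of 1.5 either way, and colors mark calls. In LPS + Ska against LPS only Ptger4 (-0.65) is colored, and the points of Ptges, Alox5 and Alox5ap (0.50, 0.51 and 0.49) lie inside the dotted lines.

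The order of levels among the 10 genes changed with treatment. In DMSO it ran from Alox5ap (305 TPM), Pla2g4a (137) and Lta4h (63.2) through Ptgs1 (33.8), Alox5 (24.5), Ptger4 (20.6), Ptgs2 (12.5) and Ptges2 (10.1) to Ptges (2.44) and Ptger2 (0.0205). The columns of Ptgs2 and Ptges2 overlapped, and those of all other neighbours in this order did not. With LPS, Pla2g4a (220.2 TPM) and Ptgs2 (158) came first, ahead of Alox5ap (125), and Alox5 (1.75) stood next to last above Ptger2, with overlap only between Ptgs1 and Ptges2. With LPS + Ska the first 4 were again Pla2g4a, Ptgs2, Alox5ap and Lta4h, and the columns of Pla2g4a and Ptgs2 overlapped, as did those of Ptges2 and Ptger4. Among the 12819 tested genes the mean TPM of Ptgs2 went from the 36.3rd percentile in DMSO to the 92.4th with LPS and the 94.2nd with LPS + Ska, and that of Alox5 from the 53.2nd to the 8.56th and the 16.3rd.

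Around these genes, 72 further genes of the pathway were listed, of which 34 were expressed enough to be tested. With LPS 5 of the 34 were called higher and 14 lower, with a median of -0.42, where 12.7% of all tested genes were called higher and 19.7% lower. With LPS + Ska against DMSO 5 of the 34 were higher and 13 lower, where 11.4% of all tested genes were called higher and 25.1% lower. The called counts of the single lists below are to be read beside these shares. In LPS + Ska against LPS 6 were higher and 0 lower by limma, with a median of 0.04, while 8 were higher and 4 lower by adjusted p alone, and 10 were higher and 6 lower at an unadjusted p under 0.05. The shares of all tested genes under these rules in LPS + Ska against LPS are those given above for the 9 genes. In LPS against DMSO an unadjusted p under 0.05 was reached by 28.1% of all tested genes as higher and 36.3% as lower, beside which the counts of the lists at that threshold are to be read.

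In the list of arachidonic acid release and re-esterification, 14 of 24 genes were tested, and LPS gave 4 higher and 2 lower. Acsl4, a ligase that returns arachidonic acid to the acyl-CoA pool, rose by 1.12 (162 against 73.8 TPM, limma adjusted p = 8.8e-06). Pla2g4c, a relative of Pla2g4a, rose by 0.87 (2.85 against 1.08 TPM, limma adjusted p = 0.0039). Daglb, a diacylglycerol lipase, fell by 1.18 (12.5 against 29.3 TPM, limma adjusted p = 4.2e-05). Of the 14, 0 were called by limma in LPS + Ska against LPS, and at an unadjusted p under 0.05 1 was higher and 4 lower.

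The list of prostanoid synthases, which also holds reductases, had 5 of 10 genes tested and gave 1 higher and 3 lower with LPS. In LPS + Ska against LPS 2 were higher, the reductases Cbr3 and Akr1b3. Hpgds, the hematopoietic prostaglandin D synthase, fell by 1.47 with LPS (12.1 against 35.4 TPM, limma adjusted p = 6.2e-06), and the carbonyl reductase Cbr1 fell by 0.88 (limma adjusted p = 9.3e-05). Neither was called in LPS + Ska against LPS, where Hpgds stood at 14.6 against 12.1 TPM (limma adjusted p = 0.14). Ptges3 was not called there either (492 against 456 TPM, limma adjusted p = 0.14). Cbr3, a second carbonyl reductase, measured 27.5, 23.5 and 26.5 TPM in DMSO, 2.89, 2.62 and 3.16 with LPS, and 16.7, 18.1 and 15.3 with LPS + Ska. It fell by 2.78 with LPS (limma adjusted p = 6.9e-08), was 2.19 higher with LPS + Ska than with LPS (SE 0.10, limma adjusted p = 3.2e-06), and stayed below DMSO by -0.60 (limma adjusted p = 6.3e-04). Akr1b3, an aldose reductase that can also make prostaglandin F2α, measured 392, 411 and 448 TPM in DMSO, 749.6, 830.0 and 669 with LPS, and 1169, 1069 and 1269 with LPS + Ska. It was higher by 0.84 with LPS (limma adjusted p = 5.1e-05) and by a further 0.64 with LPS + Ska (SE 0.09, limma adjusted p = 0.0013), each step with no overlap between groups.

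For prostaglandin breakdown and transport, 5 of 6 genes were tested, with 0 higher and 2 lower with LPS by limma (0 and 5 at an unadjusted p under 0.05) and 1 higher with LPS + Ska against LPS. Hpgd, the dehydrogenase that inactivates prostaglandins and 1 of the 2 lower genes, averaged 3.27 TPM in DMSO, 0.720 with LPS and 0.614 with LPS + Ska. It passed the filter only through its DMSO level, so its call (-1.29, limma adjusted p = 0.0011) was favored by the filter and is given as a value only. Ptgr1, a reductase that inactivates prostaglandins and leukotriene B4, measured 14.8, 12.8 and 15.0 TPM in DMSO, 8.43, 7.46 and 9.41 with LPS, and 25.9, 23.6 and 28.2 with LPS + Ska. It fell by 0.69 with LPS (limma adjusted p = 4.6e-04), was higher by 1.51 with LPS + Ska than with LPS (SE 0.11, limma adjusted p = 3.7e-05), and lay above DMSO by 0.82 (limma adjusted p = 1.3e-04).

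Leukotriene synthesis and breakdown, with 7 of 11 genes tested, gave 0 higher and 6 lower with LPS by limma (median -1.45), and 3 higher and 0 lower in LPS + Ska against LPS (median 0.60). At an unadjusted p under 0.05 these were 0 and 7, and 4 and 0. Mgst3, a microsomal glutathione transferase, measured 52.7, 60.8 and 62.5 TPM in DMSO, 4.48, 3.23 and 5.73 with LPS, and 8.14, 9.26 and 7.02 with LPS + Ska. Its fall with LPS was 3.47 (limma adjusted p = 3.7e-07), and it was 0.76 higher with LPS + Ska than with LPS (SE 0.17, limma adjusted p = 0.0096). Mgst2, a relative that can make leukotriene C4, measured 23.3 TPM in LPS and 57.3 in LPS + Ska, a difference of 1.27 (SE 0.21, limma adjusted p = 0.0023), and its LPS + Ska columns overlapped those of DMSO. Dpep2, a dipeptidase that converts leukotriene D4 to E4, fell by 2.49 with LPS (6.65 against 41.9 TPM, limma adjusted p = 8.8e-08) and was 0.89 higher with LPS + Ska than with LPS (13.2 TPM, SE 0.09, limma adjusted p = 2.9e-04). Ltc4s, the leukotriene C4 synthase, fell by 2.67 with LPS (1.46 against 14.5 TPM, limma adjusted p = 0.0019). With LPS + Ska it was not called against LPS (0.60, 95% interval from -0.59 to 1.80).

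Of 7 further prostanoid receptors 2 were tested, of which Ptgir, the prostacyclin receptor, fell by 0.89 with LPS (5.13 against 10.3 TPM, limma adjusted p = 3.0e-05) and was at 0.58 in LPS + Ska against LPS, just inside the fold limit (limma adjusted p = 0.0018). The other, Ptger1, averaged 3.33 TPM in DMSO, 1.96 with LPS and 1.26 with LPS + Ska. It was not called in LPS against DMSO or in LPS + Ska against LPS. Against DMSO it was called lower with LPS + Ska (-0.91, limma adjusted p = 0.0012). Of 8 leukotriene and lipoxin receptors 1 was tested, Cysltr1, with no call in any comparison. Of 6 other lipoxygenases 0 reached a mean of 1 TPM, so Alox5 was the only lipoxygenase above that level among those listed.

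**Figure D4:**
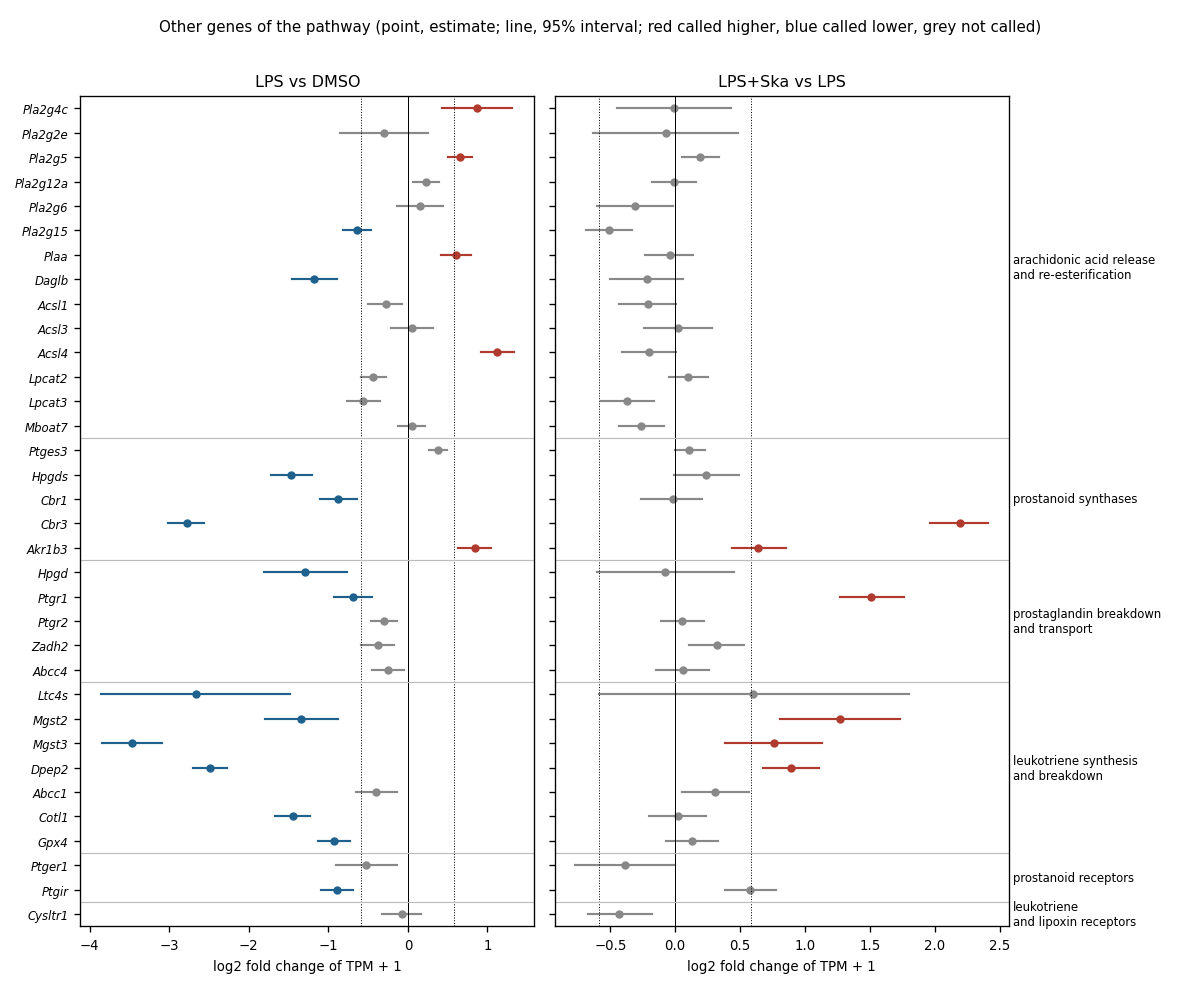
Log2 fold change of TPM + 1 (horizontal axes, which differ in range) of the 34 tested genes of the further lists, in LPS against DMSO (left) and LPS + Ska against LPS (right), with limma estimates as points, 95% intervals as lines, dotted lines at a fold of 1.5 either way and colors for calls. On the right the 6 called genes are Cbr3, Akr1b3, Ptgr1, Mgst2, Mgst3 and Dpep2, all higher, and Cbr3 lies furthest out at 2.19.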

How the data were processed

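The authors sequenced RNA of 9 samples and deposited 1 table of TPM for 55401 genes. Per the submitters' processing notes, fastp 0.20.1, HISAT2 2.2.1, StringTie 2.0 and mm10 were used, and how the tied columns were made is not given in the sources used here. The labels and the study's results give 24 h of treatment, and the study's methods a longer time. Column sums ranged from 999895 to 1000145 TPM, and 12498 to 13012 genes per column reached 1 TPM.

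Fold changes came from limma 3.58.1 under R 4.3.3, by lmFit followed by eBayes with trend, on log2(TPM + 1) of all 9 columns. The pseudocount was 1, the 12819 genes averaging 1 TPM or more were tested, with Benjamini-Hochberg adjustment over them. The fit was tested on simulated data. Recovered values were replicate 5 plus and minus 0.5 times the difference between replicates 6 and 5, since the 3 columns amount to a value, and that value plus and minus 1 difference.

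The members and gene lists were chosen with earlier results of these data known. Named genes were the 10 members, every further pathway gene called in LPS + Ska against LPS and the 3 largest calls per list in LPS against DMSO, plus the 3 genes most like Ptgs2 and Alox5. Ptges3 and Ptger1 were added afterwards, as genes left out of the pair shares. Dpep2 has a second identifier at 0.274 TPM, which was not used. Coordinates are those of GENCODE M21 on GRCm38, and the promoters are from RefSeq. Protein sequences were not used here. Plots were made by matplotlib 3.10.9 under Python 3.11.15.

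Same-numbered columns were checked for pairing by correlating their deviations from group means across genes: r was 0.384, 0.151 and 0.128 between LPS and LPS + Ska, whose columns are tied, and -0.032 to 0.0801 for the pairs with DMSO. As tied columns do not give 3 separate correlations, the numbers were not used as pairs, and the fit with a replicate block stands as an alternative. The alternatives tried were median-ratio scaling, a pseudocount of 0.1, a filter at 5 TPM or none, rescaling without mitochondrial-genome and ribosomal protein genes, adjusted p alone, only the 2 groups compared, no trend, a replicate block, recovered values and each column left out.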

Additional observations from a re-analysis of the deposited data

How the results depend on the processing

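Of the log2 fold changes of the 9 tested genes under all alternatives, 496 kept their direction and side of the call limits, 1 lost a call, 10 gained one and 3 changed sign. The sign changes were Lta4h in LPS against DMSO, at 0.03 under median-ratio scaling and from -0.11 to 0.03 with single columns left out (0.03 without DMSO replicate 6), and Pla2g4a in LPS + Ska against LPS, from -0.0027 (without LPS + Ska replicate 6) to 0.11 with single columns left out. The cause was not tested. The count of the 9 genes called in LPS + Ska against LPS, 1 in the report, was 3 with a pseudocount of 0.1, 2 with median-ratio scaling and 4 by adjusted p alone. The 2 under median-ratio scaling were Alox5 and Alox5ap, both higher, without Ptger4. In LPS against DMSO it was 7 in the report and 7 or 8 under all alternatives. In LPS + Ska against DMSO it was 7 and ranged from 6 (mean TPM of at least 5) to 9 (adjusted p alone). At a mean TPM of at least 5 Ptges was not tested. Without a filter Ptger2 was tested too and added a call in both comparisons with DMSO. The further pathway genes called by adjusted p alone were 29 in LPS against DMSO, where the report has 19, and 12 in LPS + Ska against LPS, where it has 6. Over all tested genes adjusted p alone, which drops the fold limit, gave 7734, 3663 and 8116 calls for LPS against DMSO, LPS + Ska against LPS and LPS + Ska against DMSO, against 4151, 1195 and 4678 with it. With each column left out in turn, the 9 genes gave 7, 1 and 7 calls in these comparisons, and the further genes ranged from 18 to 20, from 5 to 7 and from 17 to 19. In the tied LPS and LPS + Ska groups a left-out column can be recomputed from the remaining columns. Leaving it out removes no independent value, so these counts cannot show how far calls depend on single samples there. Recovered values gave 7, 1 and 7 calls among the 9 genes and 19, 6 and 18 among the further genes, the same genes in the same direction. With a replicate block the counts were again 7, 1 and 7, and 19, 6 and 18 (limma), so the block changed no call; whether the numbers pair the samples cannot be told from tied columns. Sequencing depth, which would limit the low values of Ptger2 and Ptges, is unknown in TPM.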

Other observations

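Near Ptgs2 on chromosome 1, the noncoding transcript Ptgs2os2 lies on the opposite strand, with its 3′ end 50816 bases beyond the end of the gene (150159043 to 150164948). It measured 7.18, 10.2 and 7.29 TPM in DMSO, 13.6, 13.0 and 14.3 with LPS, and 25.2, 28.6 and 21.9 with LPS + Ska, with no overlap between the groups. The difference was 0.68 on the log2 scale with LPS against DMSO (limma adjusted p = 0.0023), 0.84 with LPS + Ska against LPS (limma adjusted p = 0.0026) and 1.51 with LPS + Ska against DMSO (limma adjusted p = 1.4e-05), each called. Ptgs2os2 was chosen for its place beside Ptgs2, and Ptgs2 itself was not called between LPS + Ska and LPS. A nearer opposite-strand transcript, Ptgs2os, lies 68 bases from the start of Ptgs2. It stood at 0 to 0.0785 TPM in DMSO, 0.358 to 0.575 with LPS and 0.134 to 0.186 with LPS + Ska. Between LPS + Ska and LPS it therefore went the other way from Ptgs2os2. With a mean of 0.218 TPM over the 9 columns it did not pass the filter and was not tested. The start of Pla2g4a, on the minus strand, lies 138741 bases from the start of Ptgs2, on the plus strand of the same chromosome, and these are the 2 of the 9 tested genes that were called higher with LPS.

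The genes whose log2(TPM + 1) was most like that of Ptgs2 over the 9 columns, among 10029 genes with a mean of at least 5 TPM, were Kctd12 (Pearson r 0.9991), Tasp1 (0.9989) and Psma6 (0.9985). For Alox5 they were Igf1 (0.9995), C130050O18Rik (0.999) and P2ry6 (0.999). Igf1, an insulin-like growth factor, had a mean of 30.6 TPM in DMSO, 0.0902 with LPS and 0.890 with LPS + Ska. These correlations are a description over 9 columns of 3 groups, of which 6 are tied, and are mostly set by the difference between DMSO and the other groups.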
